A study of Mus musculus with 5 samples.

Results

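The 9 genes described here are read as signs of neutrophils and myeloid suppressor cells, and were measured on expression arrays of tumour cells from mouse prostates. They are the calgranulins S100a8 and S100a9, the stefin Stfa3, the receptors Csf3r and Cxcr2, the granule collagenase Mmp8, the resistin-like Retnlg, the arginase Arg1 and the cytokine Csf3. All probe sets whose single gene symbol in the platform annotation was one of these names were taken, which gave 8 of 45037 probe sets, 1 each for 8 of the 9 genes. Retnlg had no probe set under that symbol and was not analysed here. The 8 genes are 8 of 18193 genes with a probe set of 1 symbol. They were chosen with results of these arrays known, which makes them selected on the genotype comparison and on the marker levels of single arrays, so their own levels and genotype differences are given as a description and without a test.

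Neutrophils are short-lived granulocytes that mature in the bone marrow under the cytokine G-CSF, the product of Csf3, and enter tissue along gradients of chemokines that bind CXCR2. In tumours, immature or altered neutrophils and monocytes that restrain T cells are called myeloid-derived suppressor cells, and arginase 1, which takes arginine from the surroundings, is one of the enzymes used to recognise them. Several of the same genes are also used by epithelium: calgranulins, stefins and arginase 1 are made by keratinocytes, and Csf3 by epithelial and stromal cells.

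The arrays came from 2 nTKO mice, aged 31.43 weeks (nTKO 1) and 16 weeks (nTKO 2), and from 3 nDKO mice, aged 15.86 weeks (nDKO 1) and 10.71 weeks (nDKO 2 and nDKO 3), on a C57BL/6 background. Both genotypes carry a Probasin driver, which acts in prostate epithelium, with floxed alleles that include Smad4, and nTKO mice carry floxed Pygo2 in addition. Tumours were dissociated on ice and tumour cells were taken with beads against EpCAM. Values are log2 signals, so that 1 unit is a factor of 2, and each array is a different mouse.

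Pygo2 had signals of 7.30 and 6.35 in nTKO cells, against 8.65, 8.62 and 8.72 in nDKO cells, and Smad4 had 9.76 and 10.37 against 9.63, 9.88 and 9.88. Array medians lay between 4.94 and 4.98. On the first principal component, with 52.1% of the variance, nTKO 1 (16.7) and nDKO 1 (36.9) stood apart from the other arrays (-23.6 to -14.5), so the differences of the 8 genes and the median differences of the gene lists printed below are also given without these 2 mice. The nTKO group holds only 2 mice, 1 of which is the oldest of all, and age and genotype cannot be told apart. With 2 mice against 3, the smallest p that an exact permutation test allows is 0.1. As a guide to the dim end of the scale, 71 olfactory and vomeronasal receptor genes had medians of 3.22 to 3.33 and 95th percentiles of 4.88 to 5.13 per array. Probe sets differ in brightness, so levels are compared between mice for one gene and not between genes.

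The suspensions held leukocyte RNA beside that of epithelium. Epcam, the surface protein used for the selection, had signals of 13.24 and 13.41 in nTKO cells, against 12.94, 13.48 and 13.35 in nDKO cells. Ptprc, the leukocyte antigen CD45, had 8.84 and 6.87 in nTKO cells, against 7.46, 6.87 and 8.33 in nDKO cells. All 8 pan-leukocyte markers measured were above the 95th percentile of the olfactory and vomeronasal genes on all 5 arrays. Ly6g and Fpr1, which define neutrophils, lacked a probe set of their own, and 3 (Camp, Ngp and Cd177) of the 13 neutrophil markers measured, a list that includes Csf3r, Cxcr2 and Mmp8, were at or below that percentile on all 5 arrays. In such bulk samples, fewer cells of a type and less RNA per cell cannot be told apart.

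S100a8 and S100a9 encode the subunits of calprotectin, a calcium- and zinc-binding protein that fills the cytosol of neutrophils and signals through TLR4 and RAGE when released. Both genes separated the 2 nTKO mice further than any pair of nDKO mice. S100a8 had signals of 12.79 and 8.30 in nTKO cells, against 10.53, 9.66 and 10.37 in nDKO cells. S100a9 had 12.94 and 7.93 in nTKO cells, against 10.01, 9.26 and 9.99 in nDKO cells. For both, nTKO 1 was the highest and nTKO 2 the lowest of the 5 arrays, with the nDKO mice between them. The range over the arrays was 4.49 for S100a8 and 5.01 for S100a9, a 22.5-fold and a 32.2-fold ratio of the highest to the lowest array, and 0.209% and 0.132% of the 18193 genes had a larger range (median range of all genes 0.31). The excess of nTKO 1 over nTKO 2 was larger in 16 genes than for S100a8 and in 9 genes than for S100a9.

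The group means hide this split. S100a8 averaged 10.54 ± 3.17 in nTKO cells (SD, n = 2) and 10.19 ± 0.46 in nDKO cells (SD, n = 3), a difference of 0.36 (SE 1.45). S100a9 averaged 10.43 ± 3.54 in nTKO cells (SD, n = 2) and 9.75 ± 0.43 in nDKO cells (SD, n = 3), a difference of 0.68 (SE 1.60). Each standard error exceeds its difference. Without nTKO 1 the differences were -1.89 for S100a8 and -1.82 for S100a9, and without nTKO 2 they were 2.60 and 3.19. Without both nTKO 1 and nDKO 1 they were -1.71 and -1.70. Between the mice of like age (nTKO 2 minus nDKO 1) they were -2.23 and -2.08. The direction of the calgranulin difference therefore followed which nTKO mouse was used.

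**Figure D1:**
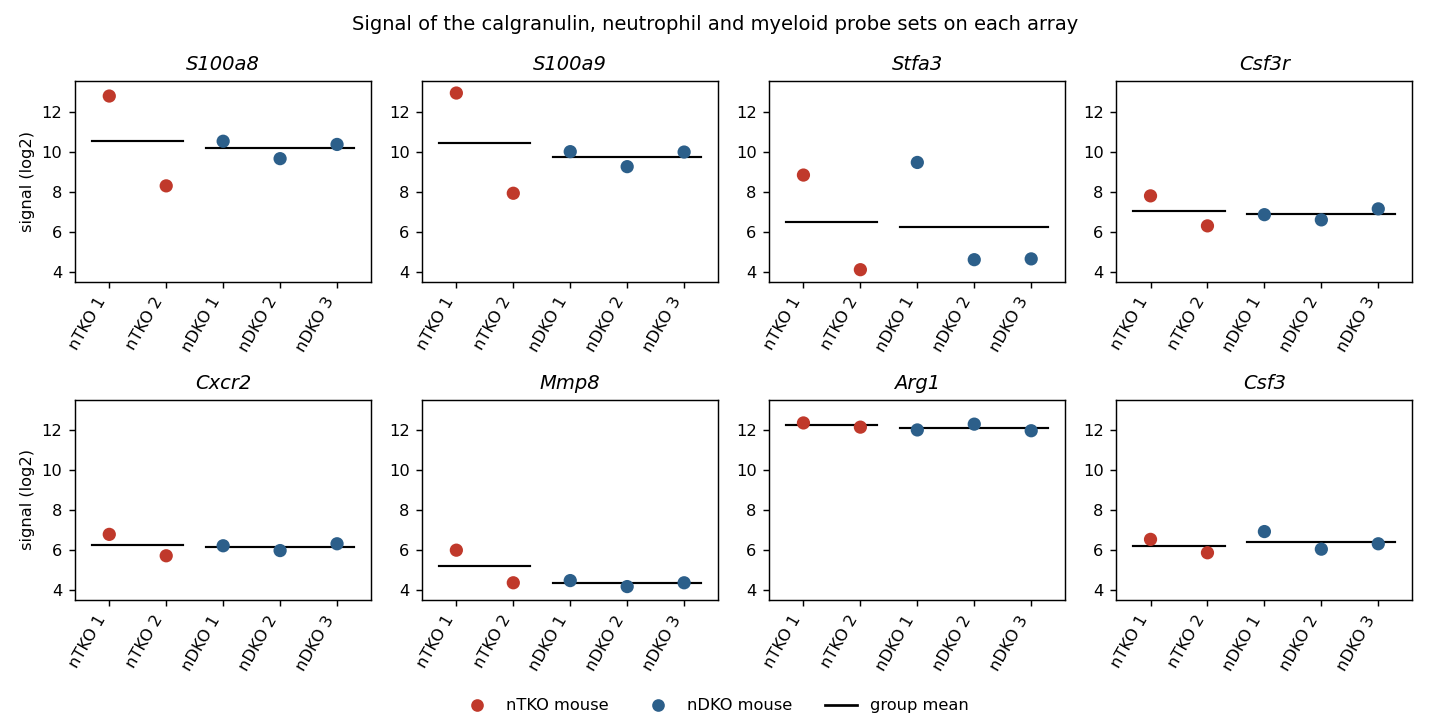
Log2 signal (vertical axis) of the 8 probe sets on each array (horizontal axis), with nTKO mice in red, nDKO mice in blue and black lines for the group means. The calgranulins S100a8 and S100a9 lie highest in nTKO 1 (12.79 and 12.94) and lowest in nTKO 2 (8.30 and 7.93), Stfa3 is high in nTKO 1 and nDKO 1 (8.84 and 9.47), and Arg1 stays between 11.98 and 12.37.

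The promoters of the calgranulins and of Stfa3 are printed because the first 2 genes moved together over the arrays and the third did not. Each runs from 250 bases before to 50 after the RefSeq gene start (build GRCm38.p6), 5′ to 3′ along the gene. Capitals mark matches on either strand to TTNNGNAA (bound by C/EBP factors of granulocytes), GAGGAA (the core of PU.1 sites), TGANTCA (AP-1) and TATAAA (the TATA box).
S100a8, chr3:90668821-90669120, plus strand: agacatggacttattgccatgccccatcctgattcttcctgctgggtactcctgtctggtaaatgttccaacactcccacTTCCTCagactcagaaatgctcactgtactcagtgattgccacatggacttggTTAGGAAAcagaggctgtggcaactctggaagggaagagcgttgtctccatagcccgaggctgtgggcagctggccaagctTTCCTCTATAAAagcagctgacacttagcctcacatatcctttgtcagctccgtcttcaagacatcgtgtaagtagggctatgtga
S100a9, chr3:90695672-90695971, minus strand: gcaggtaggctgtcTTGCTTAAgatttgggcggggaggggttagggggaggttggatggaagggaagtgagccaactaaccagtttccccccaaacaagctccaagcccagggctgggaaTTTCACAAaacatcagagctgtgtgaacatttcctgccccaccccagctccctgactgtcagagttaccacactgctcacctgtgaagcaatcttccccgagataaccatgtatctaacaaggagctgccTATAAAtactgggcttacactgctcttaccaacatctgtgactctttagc
Stfa3, chr16:36455343-36455642, minus strand: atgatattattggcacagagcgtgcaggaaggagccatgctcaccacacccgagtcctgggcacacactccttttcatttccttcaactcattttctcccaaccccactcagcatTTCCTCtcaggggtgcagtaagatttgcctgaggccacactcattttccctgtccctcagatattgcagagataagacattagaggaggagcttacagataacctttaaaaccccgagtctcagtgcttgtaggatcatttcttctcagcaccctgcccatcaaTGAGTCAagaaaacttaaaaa

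Among 32851 promoters of this length, 40.7% held TTNNGNAA, 28.3% GAGGAA, 7.81% TGANTCA and 13.6% TATAAA. The S100a8 window held 1 match to TTNNGNAA, 2 to GAGGAA and 1 to TATAAA, with 1 GAGGAA match directly before the TATA box. The S100a9 window held 2 matches to TTNNGNAA and 1 to TATAAA. This TATAAA begins at position 1 of the RefSeq gene, whereas that of S100a8 begins at position -30. The Stfa3 window held 1 match to GAGGAA, at position -135, and 1 to TGANTCA, which lies after the gene start at position 30. RefSeq windows were found for 7 of the 9 genes. Csf3r and Cxcr2, which shared the extremes of the calgranulins, held 0 matches to TTNNGNAA, as did Stfa3. Mmp8 held 2 such matches and Retnlg 1. A link between matches and the order of the mice was not tested. These matches describe letters in the windows, and binding was not measured.

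Csf3r, the receptor for G-CSF, and Cxcr2, the receptor for the neutrophil-attracting chemokines, are surface proteins typical of mature neutrophils. They kept the same extremes as the calgranulins over a smaller range. Csf3r had signals of 7.80 and 6.30 in nTKO cells, against 6.86, 6.60 and 7.15 in nDKO cells. Cxcr2 had 6.80 and 5.73 in nTKO cells, against 6.23, 5.99 and 6.33 in nDKO cells. For both receptors nTKO 1 was highest, nTKO 2 lowest and nDKO 3 second, and the groups overlapped. Their ranges were 1.50 and 1.07, a 2.83-fold and a 2.1-fold ratio of the highest to the lowest array. The differences nTKO minus nDKO were 0.18 (SE 0.51) for Csf3r and 0.08 (SE 0.36) for Cxcr2. Without nTKO 1 they were -0.57 and -0.45, without nTKO 2 0.93 and 0.62, and without both nTKO 1 and nDKO 1 -0.57 and -0.43. For Cxcr2 the difference was also -0.015 without nDKO 2.

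Mmp8, neutrophil collagenase, is stored in the granules of neutrophils. It had signals of 6.01 and 4.38 in nTKO cells, against 4.49, 4.19 and 4.38 in nDKO cells. On 4 of the 5 arrays it lay under the 95th percentile of the olfactory and vomeronasal genes, and nTKO 1 was the array above it. Its difference of 0.84 (SE 0.52) was 0.027 without nTKO 1, 1.66 without nTKO 2 and 0.095 without both nTKO 1 and nDKO 1. Because a dim probe set may not respond, the lower 4 arrays have no secure order.

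Stfa3 encodes a stefin, a small cytosolic inhibitor of cysteine cathepsins, from a cluster of closely related mouse genes expressed in neutrophils and in cornifying epithelium. It had signals of 8.84 and 4.11 in nTKO cells, against 9.47, 4.61 and 4.65 in nDKO cells. One mouse of each genotype was thus high, and the other 3 arrays were under the 95th percentile of the olfactory and vomeronasal genes. Its highest and lowest arrays were 5.36 apart, but the lower end lies in the range of those receptor genes, so neither this distance nor the differences that follow have a secure size. The difference of 0.23 (SE 2.31) was -2.13 without nTKO 1, 2.60 without nTKO 2, 1.84 without nDKO 1, -0.59 without nDKO 2, -0.57 without nDKO 3 and -0.52 without both nTKO 1 and nDKO 1.

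The arrays with high Stfa3 were those with high keratins of squamous epithelium. Krt10, a keratin of the suprabasal epidermis, had 13.04 and 6.90 in nTKO cells, against 13.03, 6.93 and 6.71 in nDKO cells. The 20 squamous markers had medians of 8.54 and 5.44 in nTKO cells, against 9.84, 6.21 and 6.01 in nDKO cells, and summed linear signals of 34839 and 9870 against 47248, 14704 and 14818. The calgranulins did not share this order, being highest in nTKO 1. In nDKO 1, where the squamous median was highest, S100a8 (10.53) and S100a9 (10.01) were the highest of the nDKO mice. They lay within 0.2 of nDKO 3 (10.37 and 9.99) and above nDKO 2 (9.66 and 9.26). The neutrophil markers other than the genes described and Ltf had summed linear signals of 520 in nDKO 1, 489 in nDKO 2 and 651 in nDKO 3. In nTKO 1 the squamous and the neutrophil markers were both high. The parts of both in the calgranulin signal were not tested. Stfa2l1, another stefin, had 8.84 and 4.41 in nTKO cells, against 5.50, 5.02 and 5.54 in nDKO cells, so that it was high in nTKO 1 and not in nDKO 1. Related stefins are close in sequence and their probes may cross-react, which was not tested.

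**Figure D2:**
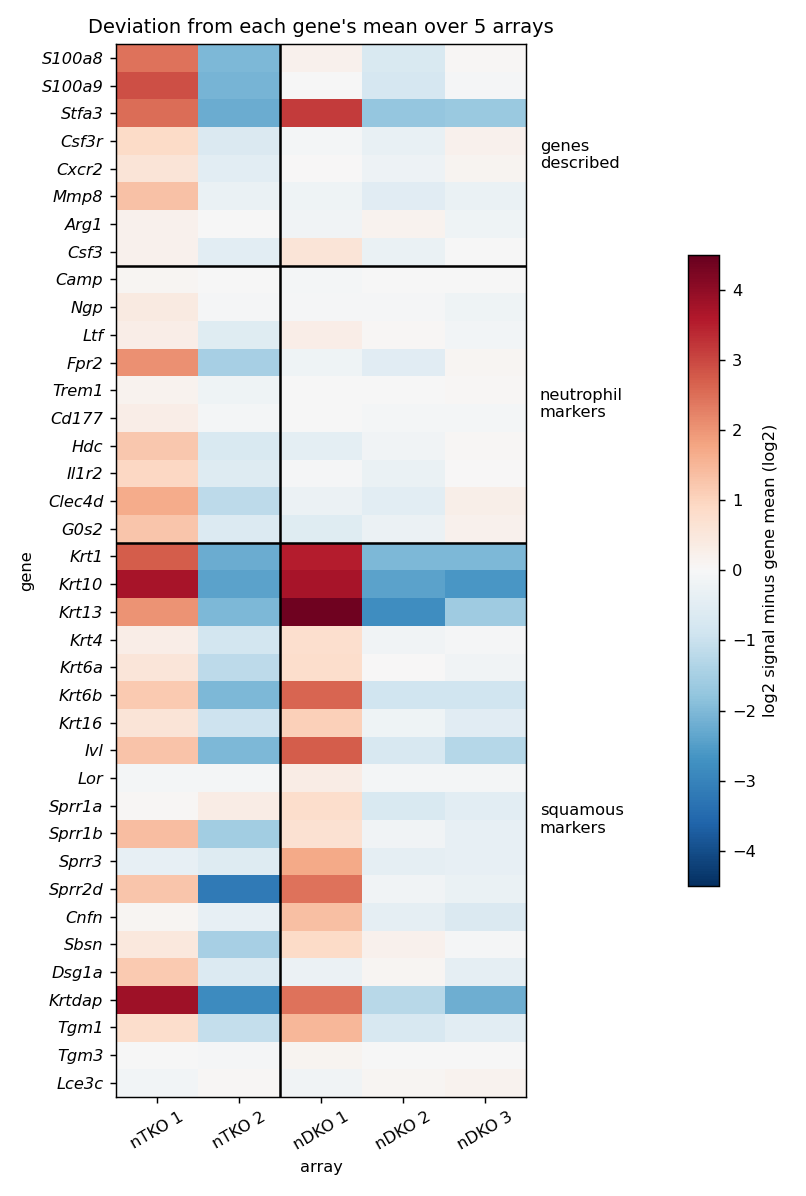
Log2 signal minus the mean of the gene over the 5 arrays (colour), for the 8 genes described, 10 other neutrophil markers and 20 squamous markers (rows) on each array (columns, nTKO left of nDKO). Fpr2 and Clec4d share the extremes of S100a8 and S100a9, with nTKO 1 highest and nTKO 2 lowest, while Stfa3 shares with Krt1 and Krt10 high values in nTKO 1 and nDKO 1.

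Arg1 encodes arginase 1 of the liver urea cycle, which is also found in alternatively activated macrophages, in suppressive neutrophils and in keratinocytes. It had signals of 12.37 and 12.16 in nTKO cells, against 12.02, 12.31 and 11.98 in nDKO cells. The groups overlapped, and the range over the arrays was 0.39, against ranges of 1.25 to 2.22 for the 8 pan-leukocyte markers. This range was ordinary, with a median of 0.31 for all genes and 36.3% of them larger. The difference was 0.16 (SE 0.14), and leaving out 1 mouse gave 0.057 to 0.27 (0.015 without both nTKO 1 and nDKO 1). Arg1 was thus near level on arrays whose leukocyte markers were not, and which cells made it was not tested.

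Csf3 encodes G-CSF. It had signals of 6.55 and 5.88 in nTKO cells, against 6.94, 6.06 and 6.33 in nDKO cells. It was highest in nDKO 1 and not in nTKO 1, so the cytokine and its receptor Csf3r differed in which mouse was highest. The difference of -0.23 (SE 0.36) was 0.020 without nDKO 1, 0.11 without nTKO 2, -0.31 without both nTKO 1 and nDKO 1 and -1.06 in the pair of like age.

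**Figure D3:**
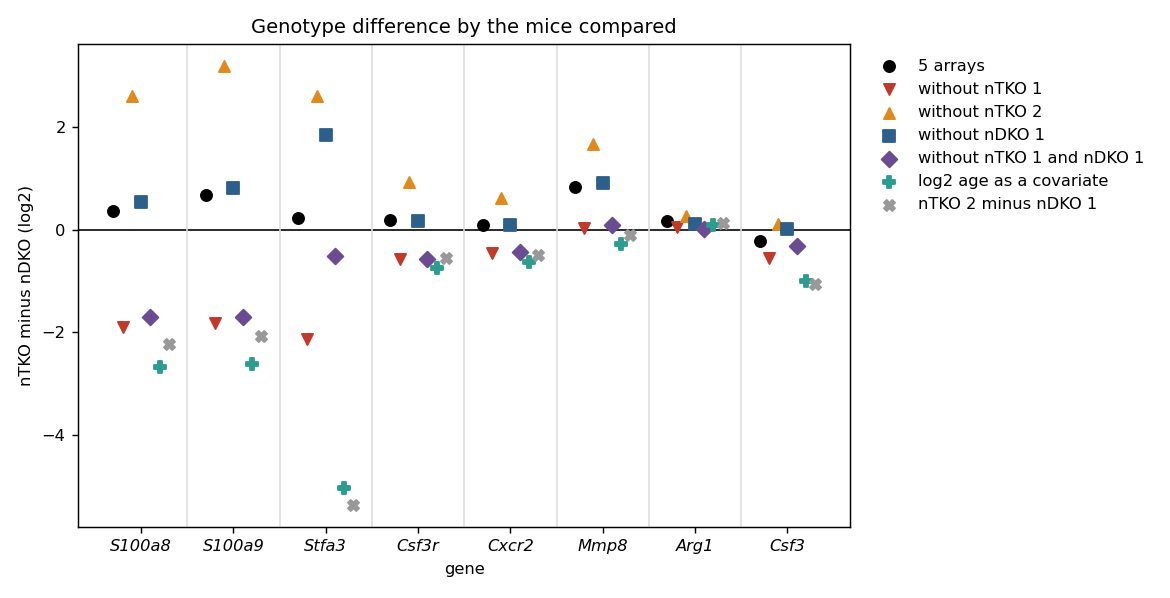
Difference nTKO minus nDKO (vertical axis, log2) of the 8 genes (horizontal axis) over the 5 arrays, with mice left out, with log2 age as a covariate and for nTKO 2 minus nDKO 1. For S100a8 and S100a9 the values reach from -2.68 and -2.61 to 2.60 and 3.19, while those of Arg1 lie between 0.015 and 0.27.

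Over the 8 genes measured, 7 had a higher mean in nTKO cells, with a median difference of 0.21, beside 60% of all genes and a median of 0.028. The 2 genotypes did not overlap for 0 of the 8 genes, against 12.8% of all 18193 genes. The highest array was nTKO 1 for 6 of the 8 (30.8% of all genes), and for 4 of them nTKO 2 was also the lowest (6.25% of all genes). The choice of the genes used these values, so nothing is read from the counts. In the limma fit, 0% of all genes had an adjusted p under 0.05 (smallest 0.853), 3.79% had an unadjusted p under 0.05 (689 genes, 447 higher and 242 lower), and 0.132% had in addition a fold of at least 2.

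Genes of related roles showed how far the order of the mice extended. Of 19 further neutrophil receptors and signalling genes measured, 16 had a higher and 3 a lower mean in nTKO cells (60% of all genes higher). Their median difference was 0.28, and 0 had an unadjusted limma p under 0.05. Of the 19, 16 were highest in nTKO 1 (30.8% of all genes). Also highest there were 5 of 8 pan-leukocyte markers and 3 of 14 monocyte and macrophage markers. Which leukocytes gave the values of this list was not tested. Of the 19, 9 had both extremes of the calgranulins, highest in nTKO 1 and lowest in nTKO 2 (6.25% of all genes). The order of the mice between the extremes was not counted. The median of this list was -0.22 without nTKO 1, 1.07 without nTKO 2 and -0.27 without both nTKO 1 and nDKO 1. Fpr2, a formyl peptide receptor that senses bacterial and mitochondrial peptides, had 8.46 and 4.91 in nTKO cells, against 6.22, 5.90 and 6.49 in nDKO cells. The lectin receptor Clec4e had 8.84 and 5.34 in nTKO cells, against 6.28, 5.96 and 6.66 in nDKO cells, and the related lectin receptor Clec4d 8.94 and 6.09 against 7.0, 6.79 and 7.53. Csf2rb, the shared beta chain of the GM-CSF, IL-3 and IL-5 receptors, had 8.13 and 6.09 in nTKO cells, against 6.38, 6.05 and 7.01 in nDKO cells. The 4 genes of the list with the smallest p had differences of 0.53 (Pilra), -0.09 (Osmr), 0.14 (Ptafr) and 0.63 (Csf2rb). Their limma adjusted p lay between 0.853 and 0.875.

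Transcripts of mature neutrophils had 13 of 16 higher and 3 lower (median 0.16, which was -0.61 without nTKO 1, 0.96 without nTKO 2 and -0.66 without both nTKO 1 and nDKO 1), and 0 had an unadjusted limma p under 0.05. Il1b, the inflammatory cytokine interleukin 1 beta, had 9.94 and 7.71 in nTKO cells, against 8.11, 8.41 and 8.60 in nDKO cells. Hdc, the histamine-forming enzyme, had 7.62 and 5.70 in nTKO cells, against 5.97, 6.26 and 6.46 in nDKO cells. Of this list, 9 genes were highest in nTKO 1 and lowest in nTKO 2 (6.25% of all genes). S100a8, S100a9, Csf3r and Cxcr2 had the same extremes. Asprv1, Ifitm1 and Ifitm2 were instead highest in nDKO 1, with nTKO 1 second. Ifitm1 had 12.90 and 9.10 in nTKO cells, against 13.08, 9.22 and 10.58 in nDKO cells. Asprv1 had 6.89 and 4.59 in nTKO cells, against 7.73, 5.69 and 5.77 in nDKO cells. The 4 genes of the list with the smallest p had differences of 0.14 (Msrb1), -0.34 (Ifitm2), 0.28 (Wfdc17) and 0.53 (G0s2). Their limma adjusted p lay between 0.853 and 0.88.

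Granule genes were mixed. Of 6 primary granule genes, which are transcribed in marrow precursors, 4 (Mpo, Elane, Ctsg and Ms4a3) were at or below the 95th percentile of the olfactory and vomeronasal genes on all arrays. Mpo, myeloperoxidase, had 4.18 and 4.18 in nTKO cells, against 4.18, 4.21 and 3.99 in nDKO cells. Of 13 later granule genes, 9 were higher and 4 lower (median 0.16, which was -0.19 without nTKO 1, 0.48 without nTKO 2 and -0.20 without both nTKO 1 and nDKO 1), and 0 passed an unadjusted limma p of 0.05. Camp, the cathelicidin of secondary granules, had 3.61 and 3.50 in nTKO cells, against 3.43, 3.50 and 3.50 in nDKO cells. Mmp9, a gelatinase of tertiary granules, had 7.06 and 5.50 in nTKO cells, against 5.66, 5.58 and 5.83 in nDKO cells. Ltf, lactoferrin, and Lcn2, lipocalin 2, which glandular epithelium also secretes, were bright on all arrays, with Ltf at 13.91 and 13.07 in nTKO cells, against 13.92, 13.65 and 13.48 in nDKO cells. Pglyrp1, a peptidoglycan-binding granule protein, was higher in both nTKO mice than in each nDKO mouse, at 11.49 and 12.22 against 10.07, 11.17 and 10.88 (difference 1.15, SE 0.43, limma adjusted p = 0.853, 0.0519 before adjustment). Its level was higher in nTKO 2 than in nTKO 1, opposite to the calgranulins.

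The median of macrophage markers was highest in another mouse than that of neutrophil markers. The 10 neutrophil markers other than the genes described had medians of 7.37 and 5.26 in nTKO cells, against 5.71, 5.74 and 6.25 in nDKO cells. Of the 10, 9 were highest in nTKO 1 (30.8% of all genes). These 9 include the dim Camp, Ngp and Cd177, and Trem1 with a range of 0.33. The summed linear signal of the 10 without Ltf was 1545 and 356 in nTKO cells, against 520, 489 and 651 in nDKO cells. The 14 monocyte and macrophage markers had medians of 6.75 and 6.21 in nTKO cells, against 6.46, 6.00 and 7.25 in nDKO cells, highest in nDKO 3, with summed linear signals of 2612 and 1920 against 2454, 1667 and 3874. Csf1r, the receptor for macrophage colony-stimulating factor, had 9.61 and 8.91 in nTKO cells, against 9.37, 8.24 and 9.96 in nDKO cells. The pan-leukocyte list had medians of 9.18 and 7.32 in nTKO cells, against 8.0, 7.51 and 8.65 in nDKO cells, with summed linear signals of 4740 and 1883 against 2152, 1812 and 4211. Their part in the genotype differences of Csf3r, Cxcr2, Mmp8 and the calgranulins was not tested. The 6 mast cell markers and the 5 eosinophil markers measured were at or below the 95th percentile of the olfactory and vomeronasal genes on all 5 arrays.

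**Figure D4:**
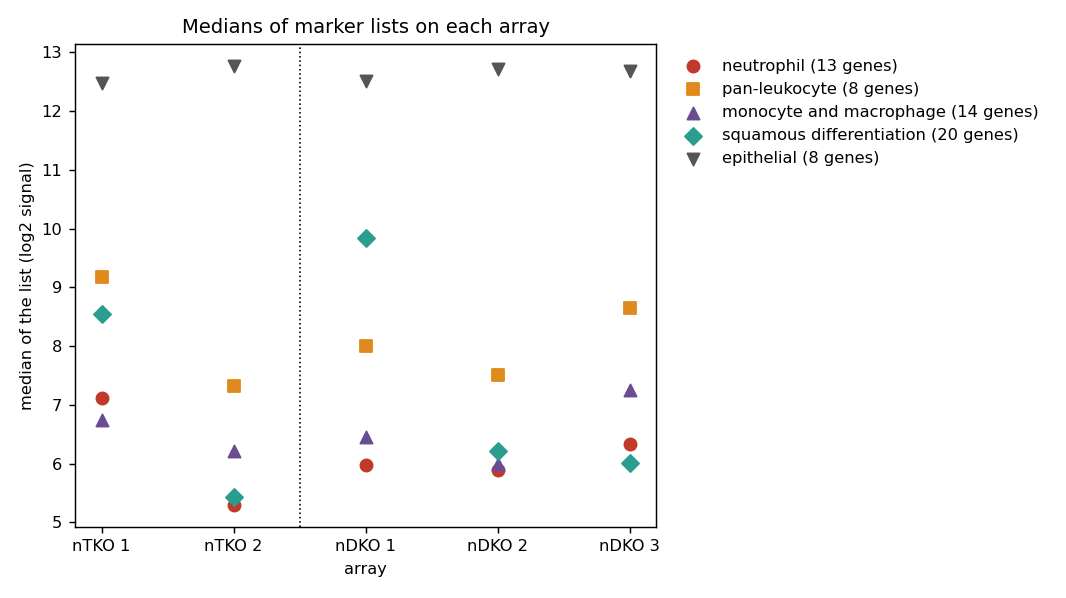
Median log2 signal (vertical axis) of 5 marker lists on each array (horizontal axis, nTKO left of the dotted line), with 1 symbol per list. The neutrophil list, which includes Csf3r, Cxcr2 and Mmp8, is highest in nTKO 1 (7.11) and lowest in nTKO 2 (5.30), the macrophage list is highest in nDKO 3 (7.25), and the squamous list is high in nTKO 1 (8.54) and nDKO 1 (9.84).

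Effector genes of suppressor cells split about as all genes (60% with a higher nTKO mean, 3.79% with an unadjusted limma p under 0.05). Of 18 measured, 11 were higher and 7 lower (median 0.15, which was -0.043 without nTKO 1, 0.33 without nTKO 2, -0.010 without nDKO 2 and -0.12 without both nTKO 1 and nDKO 1), and 1 had an unadjusted limma p under 0.05. This was Cyba, a subunit of the superoxide-forming NADPH oxidase, at 10.04 and 10.35 in nTKO cells, against 10.60, 10.95 and 10.82 in nDKO cells (difference -0.59, SE 0.16, limma adjusted p = 0.853, 0.0167 before adjustment). Cybb, the catalytic subunit of the same oxidase, had 7.42 and 6.52 in nTKO cells, against 8.02, 6.36 and 7.38 in nDKO cells, with overlapping groups. Nos2, the inducible nitric oxide synthase that shares arginine with arginase 1, had 4.63 and 4.44 in nTKO cells, against 4.44 in each nDKO mouse. Tgfb1, the cytokine TGF-beta 1, had 5.33 and 5.68 in nTKO cells, against 5.95, 5.66 and 6.01 in nDKO cells. Slc27a2, a fatty acid transporter described in suppressive neutrophils, had 6.22 and 6.17 in nTKO cells, against 4.54, 5.74 and 5.75 in nDKO cells (difference 0.85, SE 0.44, limma adjusted p = 0.853). For Slc27a2 the groups did not overlap, and nDKO 1 lay lowest.

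Around Arg1, 14 further genes of arginine metabolism were measured, of which 11 were higher and 3 lower (median 0.14, which was 0.097 to 0.23 with 1 mouse left out and 0.040 without both nTKO 1 and nDKO 1). None of them had an unadjusted limma p under 0.05 (smallest adjusted p 0.853), and in 4 both nTKO mice were above each nDKO mouse (8.13% of all genes). Oat, ornithine aminotransferase, which uses the ornithine that arginase forms, had 10.31 and 10.09 in nTKO cells, against 9.39, 9.91 and 9.91 in nDKO cells (difference 0.46, SE 0.21). Arg2, the mitochondrial arginase, had 8.79 and 8.85 in nTKO cells, against 7.31, 8.60 and 8.60 in nDKO cells, so that nDKO 1 stood low. Odc1, ornithine decarboxylase of polyamine synthesis, had 10.12 and 9.88 in nTKO cells, against 9.81, 9.74 and 9.92 in nDKO cells.

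Most other S100 genes had lower means in nTKO cells. Of 11 measured, 1 was higher and 10 lower in nTKO cells (median difference -0.50, beside 0.028 for all genes), and 4 were lower in both nTKO mice than in each nDKO mouse (4.71% of all genes). S100a14, an epithelial S100 protein, had 9.32 and 9.18 in nTKO cells, against 10.36, 9.96 and 9.73 in nDKO cells (difference -0.77, SE 0.21, limma adjusted p = 0.853, 0.0199 before adjustment). S100a6, calcyclin, had 11.22 and 11.90 in nTKO cells, against 12.17, 12.04 and 12.10 in nDKO cells, and S100a16 had 11.10 and 10.90 against 11.94, 11.33 and 11.25. Leaving out 1 mouse gave list medians of -0.57 to -0.23 (the last without nDKO 1), and leaving out both nTKO 1 and nDKO 1 gave -0.27. The dim S100b (difference -0.18) was the other gene of the list among the 4 with the smallest p. The list was one of 12 described, and 0 of its genes passed over all genes.

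Of 6 other stefins and cystatins, 2 were higher and 4 lower (median -0.31, which was -0.56 without nTKO 1, 0.14 without nTKO 2 and -0.39 without both nTKO 1 and nDKO 1). Cstb, an inhibitor of lysosomal cathepsins found in most cells, had 11.84 and 12.06 in nTKO cells, against 12.40, 12.31 and 12.15 in nDKO cells (difference -0.34, SE 0.12, limma adjusted p = 0.853, 0.0402 before adjustment). Csta1, a stefin A, had 8.60 and 7.62 in nTKO cells, against 9.33, 6.50 and 9.32 in nDKO cells, and followed neither Stfa3 nor Stfa2l1. Cst6, a cystatin of skin and glands, had 9.87 and 4.75 in nTKO cells, against 6.93, 9.33 and 8.61 in nDKO cells. Of the 3 resistin-family genes beside Retnlg, Retnla, a product of alternatively activated macrophages, had 7.46 and 8.64 in nTKO cells, against 7.91, 7.0 and 8.75 in nDKO cells, while Retn (5.98 to 6.07) and Retnlb (3.23 to 3.28) were near level.

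Chemokines that draw neutrophils through CXCR2 were highest in nTKO 1 for 3 of 6 genes (30.8% of all genes). Cxcl1 and Cxcl15 were highest in nTKO 2, and Ppbp in nDKO 1. Of the 6 CXCR2 ligands, 5 were higher in nTKO cells (60% of all genes). Their median difference of 0.58 was 0.34 without nTKO 1 and 1.21 without nTKO 2. It was 0.40 without both nTKO 1 and nDKO 1 and 0.010 between the mice of like age. In 3 of them both nTKO mice were above each nDKO mouse (8.13% of all genes), and 2 of the 6, Cxcl1 and Cxcl15, had an unadjusted limma p under 0.05 (3.79% of all genes). Cxcl1 had 9.10 and 9.48 in nTKO cells, against 8.37, 7.14 and 8.21 in nDKO cells (difference 1.38, SE 0.44, limma adjusted p = 0.853). In nTKO 2, Cxcl1 was at its highest level of the 5 arrays while Cxcr2 was at its lowest. Cxcl5 had 12.20 and 11.21 in nTKO cells, against 11.75, 10.96 and 11.13 in nDKO cells. Ppbp, a chemokine of platelets, had 8.44 and 4.44 in nTKO cells, against 10.54, 4.01 and 5.97 in nDKO cells, with high values in nTKO 1 and nDKO 1 as for Stfa3.

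Of 17 granulopoietic cytokines, receptors and regulators measured beside Csf3, 12 were higher and 5 lower, beside 60% of all genes higher. The median of 0.12 was -0.033 without nTKO 1 and -0.080 without both nTKO 1 and nDKO 1. Of the 17, 1 had an unadjusted limma p under 0.05 (3.79% of all genes). This was Il17rc, a chain of the interleukin 17 receptor, at 7.76 and 7.64 in nTKO cells, against 7.93, 8.09 and 7.91 in nDKO cells (difference -0.28, SE 0.09, limma adjusted p = 0.853). Il6 and Csf2 were dim, at 2.35 to 2.61 and 3.18 to 3.84. Cebpb, a transcription factor of emergency granulopoiesis that many cells express, had 10.88 and 9.70 in nTKO cells, against 10.31, 9.96 and 10.05 in nDKO cells. Its highest and lowest arrays were nTKO 1 and nTKO 2, as for the calgranulins.

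Among 7 receptors and partners of calprotectin, 2 were higher and 5 lower (median -0.07, which was 0.070 without nTKO 1, 0.005 without nDKO 3 and -0.065 without both nTKO 1 and nDKO 1), and 0 had an unadjusted limma p under 0.05. Tlr4 had 7.03 and 7.69 in nTKO cells, against 7.30, 7.41 and 7.59 in nDKO cells, so that it was lowest in nTKO 1, where S100a8 and S100a9 were highest. Ager, which encodes RAGE, had 4.92 and 5.10 in nTKO cells, against 5.15, 5.10 and 5.35 in nDKO cells. Hp, haptoglobin, an acute-phase protein also stored in neutrophil granules, had 10.29 and 8.90 in nTKO cells, against 9.38, 7.80 and 8.38 in nDKO cells (difference 1.07, SE 0.67, limma adjusted p = 0.853).

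For the 7 genes with a range of at least 1, the genes nearest in pattern were found by the root mean square difference of values centred on each gene's mean over the 5 arrays. S100a8 was nearest to S100a9 (0.233), then Fpr2 (0.354) and Clec4e (0.427), and S100a9 to S100a8, then Stfa2l1 (0.354) and Fpr2 (0.492). Stfa3 was nearest to the keratin Krt1 (0.283), then Sox7 (0.324) and Slc14a1 (0.656). Csf3r was nearest to Mefv (0.067), Gpr35 (0.099) and Adssl1 (0.100), and Cxcr2 to Nckap1l (0.067), Gpr35 (0.079) and Igfbp6 (0.080). Mmp8 was nearest to Gt(ROSA)26Sor (0.104), Ap1s3 (0.127) and Sftpd (0.128), and Csf3 to Pdlim7 (0.012), Fam102b (0.057) and Trim13 (0.064). With 5 arrays and 18193 genes, close matches of narrow patterns are common, so these names describe the arrays.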

How the data were processed

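Single-channel Affymetrix mouse arrays were made from 2 nTKO and 3 nDKO mice, 1 array each. The deposited values are log2 signals rounded to 2 decimals, made by the authors with RMA and the Transcriptome Analysis Console per the submitters' processing notes. Versions are not given in the sources used here. The RMA method quantile-normalizes the arrays, which hides a shift common to most genes, and draws dim probe sets towards a floor. The number of arrays limits the precision. Probe sets were named from the platform annotation: 34945 of 45037 had 1 symbol, 932 several and 9160 none. Gene identifiers of 34741 were found in a gene table of GRCm38.p6, with 0 symbols updated. For each of 18193 genes the brightest probe set with 1 symbol, by its mean, was used.

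The genotype comparison used limma 3.58.1 under R 4.3.3 (lmFit, eBayes with an intensity trend, 3 residual and 1.23 prior degrees of freedom, Benjamini-Hochberg over all genes, two-sided, threshold 0.05), and again over all probe sets (0 of 45037 passed, smallest adjusted p 0.799). The fit was tested on simulated data. Standard errors are limma's moderated ones.

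Named were all 9 genes, Pygo2 and Smad4, up to 4 genes per list with the smallest p, other stefins and CXCR2 ligands, defining markers, and the 3 nearest genes of each member. Other list genes given with their values (such as Fpr2, Clec4d, Clec4e, Il1b, Hdc, Mpo, Mmp9, Lcn2, Cybb, Nos2, Arg2, Csta1, Cebpb, Csf2 and Tlr4) were chosen after their values were seen. Genes and lists were chosen with earlier results of these data known, and list counts leave the 9 genes out, except that the 13 neutrophil markers include Csf3r, Cxcr2 and Mmp8. Alternatives were quantile normalization or median centring of the arrays, only genes at or above the median level (6.32), a robust or untrended eBayes, weights per array, the replicate number as a block, log2 age in the model, the mean of a gene's probe sets, and each mouse left out. Leaving out nTKO 1 and nDKO 1 together, and the pair of like age, were added after seeing the data. Some items are not reported here. Promoter sequences are RefSeq's, build GRCm38.p6.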

Additional observations from a re-analysis of the deposited data

How the results depend on the processing

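The count of genes with a limma adjusted p under 0.05 stayed at 0 in all alternatives run (smallest adjusted p 0.0513, without nTKO 2), as did that of probe sets. At an unadjusted p under 0.05 together with a 2-fold difference or more, 24 genes and 51 probe sets were counted. It was 354 and 587 with log2 age as a covariate, 58 and 98 without both nTKO 1 and nDKO 1, and 17 to 32 genes in the scaling, filter, variance, weight and probe set alternatives. With 1 mouse left out it ranged from 26 to 107 genes (64 without nTKO 1, 107 without nTKO 2) and from 43 to 286 probe sets (101 without nTKO 1, 286 without nTKO 2). The cause was not tested. With the replicate block over the 4 arrays numbered 1 and 2, the counts were 48 and 90, and S100a8 and S100a9 differed by 0.45 and 0.80. The numbers come from the titles, and no label ties same-numbered mice together. Over genes, deviations of nTKO 1 from its group mean correlated with those of nDKO 1 at 0.424, nDKO 2 at -0.338 and nDKO 3 at -0.31. Such deviations cancel within a group, so these correlations depend on each other and cannot decide whether the numbers pair mice. Of 126 values of the 8 genes under an alternative, 97 moved by less than 1 pooled SD and 29 by more, and 28 had the other sign. The pooled SD contains the split between mice of a group, so a wide shift can fall under it. Stfa3, at 0.23 over the 5 arrays, was -2.13 without nTKO 1 and 2.60 without nTKO 2, both among the 97. The 97 also include values that could not move. The level filter and the robust and untrended eBayes leave the difference of a gene unchanged. So does the mean of the probe sets, since each of the 8 genes has 1. Of 192 such values of list medians, 14 moved by more and 26 had the other sign. The robust and untrended eBayes could not move these medians either. With log2 age as a covariate, S100a8 was -2.68, S100a9 -2.61, Stfa3 -5.03 and Mmp8 -0.27. Dim probe sets such as Camp and Mpo, near the olfactory and vomeronasal level, limit what can be said of granule genes.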
